A study of Mus musculus with 8 samples.

Results

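The genes described here make, break down, export and sense the lipid sphingosine-1-phosphate (S1P). They are the sphingosine kinases Sphk1 and Sphk2, the lyase Sgpl1, the exporters Mfsd2b and Spns2, and the receptors S1pr1, S1pr2, S1pr3, S1pr4 and S1pr5. All 10 were found among the 22180 genes named in the platform annotation, and all 10 were among the 17576 genes tested. Members were taken by gene symbol. The probe set of a gene was to be chosen by the highest mean over all 8 arrays, but each member had a single probe set, so no measured value decided between probe sets. The pathway was put together with earlier results of these arrays known, so the tests below are descriptions of these arrays and not independent evidence.

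Expression was measured on 8 microarrays, each of one sorted population of bone marrow cells from 8-week-old C57/Bl6 mice, to ask how Chd7 is expressed in them. LT-HSC, the long-term hematopoietic stem cells, were measured as replicates 1 and 3 (2 arrays) and carried the surface phenotype CD48-, CD150+, CD34-, Lin-, Sca1+ and Kit+. ST-HSC, the short-term hematopoietic stem cells (3 arrays), had the same phenotype except that they were CD34+. Multipotent progenitors (MPP, 3 arrays) were CD48+, CD150- and CD34+, and likewise Lin-, Sca1+ and Kit+. The labels disagree on treatment, since each description states that there was none while the shared protocol gives DMSO for 2 hours, transplantation into primary recipients for 1 year and into secondary recipients for 3 months. Whether the arrays of a population stem from different animals is not stated, so a p-value here speaks of the spread between arrays, which may be technical. Each population is a bulk sort, so a larger share of cells with a transcript and more transcript per cell cannot be told apart. Values are log2 signals, and a difference of 1 on this scale is a doubling. A gene is called where its limma p, adjusted over all genes tested, is under 0.05.

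S1P is made from sphingosine inside cells by sphingosine kinases and is either dephosphorylated back to sphingosine or cleaved irreversibly by the S1P lyase. Red cells, platelets and endothelium export it, so that blood and lymph hold much S1P while tissues, where the lyase is active, hold little. Cells sense this gradient through G protein-coupled receptors, and in mouse it guides the exit of lymphocytes and of hematopoietic progenitors from tissue into blood and lymph.

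The gate genes followed the sort for CD150 and less clearly for CD34. Slamf1, which encodes CD150, lay at 7.77 and 7.78 in LT-HSC, between 7.25 and 7.46 in ST-HSC and between 4.77 and 5.46 in MPP. Cd34 lay at 8.50 and 10.20 in the LT-HSC arrays sorted as CD34-, between 9.55 and 10.15 in ST-HSC and between 10.85 and 11.003 in MPP. Cd48 lay at 5.92 and 6.63 in LT-HSC, between 6.51 and 7.49 in ST-HSC and between 6.65 and 7.84 in MPP, so ST-HSC overlapped both others while every MPP array lay above both LT-HSC arrays. Arrays LT-HSC replicate 1 and ST-HSC replicate 1 correlated less with the rest than the other 6 did, at medians of 0.956 and 0.968. Results below are given without them where a call changes.

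The exporters are shown first by their promoters, because Mfsd2b was the member that differed between populations and Spns2, the other exporter, was not called in any comparison. The sequences are RefSeq's for GRCm38.p6, run from 250 bases before to 50 bases after an annotated transcription start, and are written 5′ to 3′ on the gene's strand. Capitals mark matches to either CCACCC, a motif of the kind bound by KLF factors, or AGATAA, a motif of the kind bound by GATA factors, each searched on both strands. The first is chr12:4874310-4874609 on the minus strand, at the start of Mfsd2b (chr12:4862438-4874359). The other is chr11:72474978-72475277 on the minus strand, a start that lies inside the annotated span of Spns2 (chr11:72451638-72489976).
Mfsd2b: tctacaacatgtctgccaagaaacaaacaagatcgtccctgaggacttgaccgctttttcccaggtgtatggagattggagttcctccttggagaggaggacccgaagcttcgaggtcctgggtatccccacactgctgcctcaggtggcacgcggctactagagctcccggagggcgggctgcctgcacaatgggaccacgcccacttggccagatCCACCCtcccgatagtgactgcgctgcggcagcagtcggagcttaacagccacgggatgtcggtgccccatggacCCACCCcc
Spns2: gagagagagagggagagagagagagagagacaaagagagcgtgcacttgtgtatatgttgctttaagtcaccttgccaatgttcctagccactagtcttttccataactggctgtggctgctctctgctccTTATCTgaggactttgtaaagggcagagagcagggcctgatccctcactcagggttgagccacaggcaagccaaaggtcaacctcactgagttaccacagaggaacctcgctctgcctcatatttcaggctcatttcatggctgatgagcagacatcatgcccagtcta
The Mfsd2b window held 2 CCACCC matches and no AGATAA match. The Spns2 window held 1 AGATAA match, on the opposite strand, and no CCACCC match. Windows were found for 9 of the 10 members, 14 in all, some of them overlapping. Of these 14, 9 held a CCACCC match and 3 an AGATAA match, so CCACCC was not particular to Mfsd2b. Over 32851 windows of the same length, CCACCC in either orientation occurred in 31.5% and AGATAA in 11.2%. The arrays measured no factor binding, and a match is only a match of letters.

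**Figure D1:**
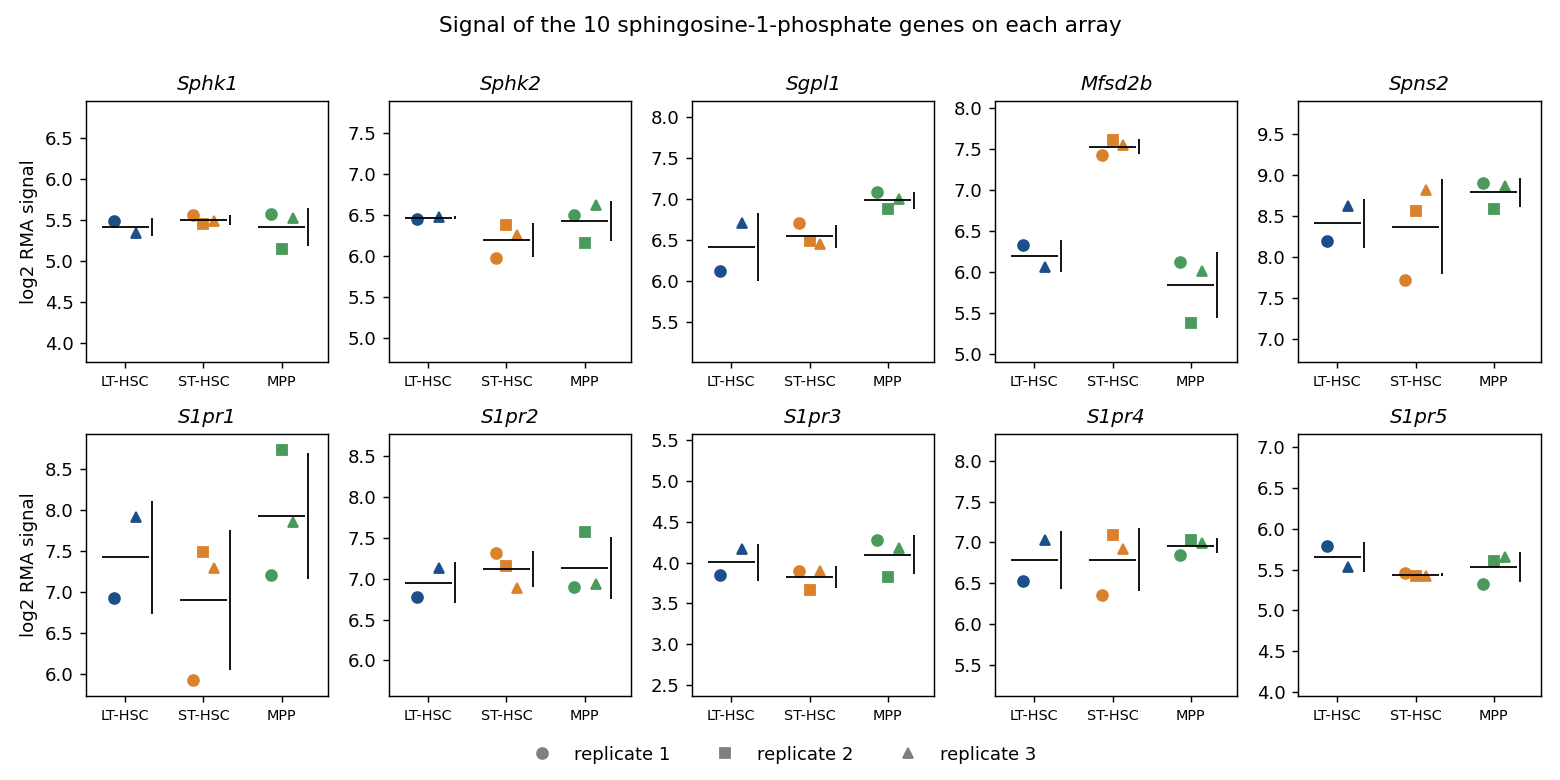
Log2 RMA signal (vertical axes, each spanning the same 3.2 log2 units) of each member on each array, by population. Points are arrays, with shapes for the replicate number, horizontal lines are population means and vertical lines are ± 1 SD. Mfsd2b stands higher in all 3 ST-HSC arrays than in any other array, while S1pr1 varies by 2.81 log2 units over the arrays.

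Mfsd2b, the exporter that releases S1P from red cells and platelets in mouse, was highest in ST-HSC. Its probe set, 17279864, read 6.34 and 6.06 in LT-HSC, 7.43, 7.61 and 7.55 in ST-HSC, and 6.13, 5.38 and 6.01 in MPP. The ST-HSC arrays did not overlap either other population, whereas the LT-HSC and MPP arrays overlapped each other. Mean signals were LT-HSC 6.20 ± 0.20, ST-HSC 7.53 ± 0.09 and MPP 5.84 ± 0.40 (SD, n = 2, 3 and 3).

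In ST-HSC the Mfsd2b signal rose 2.52-fold over LT-HSC, a log2 difference of 1.33 (SE 0.23, limma adjusted p = 0.0219). In MPP it fell below ST-HSC by a log2 difference of -1.69 (SE 0.20, limma adjusted p = 0.0141), to 0.309 of the ST-HSC signal. The MPP minus LT-HSC difference was -0.36 (SE 0.23, 95% interval -0.86 to 0.15, limma adjusted p = 0.569). The F test over the 3 populations gave a limma adjusted p of 0.00995, and it called 0 members without ST-HSC replicate 3. Mfsd2b was the only member past the threshold in these 4 tests. It was called among 0.933% of all genes tested in ST-HSC minus LT-HSC, 0.193% in MPP minus ST-HSC and 0.905% in the F test.

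The size of the Mfsd2b difference varied little with the array left out, but its call did not hold in every case. The ST-HSC minus LT-HSC difference ran from 1.20 to 1.52 over the alternatives (limma adjusted p from 0.00298 to 0.154) and was not called without LT-HSC replicate 1 (limma adjusted p = 0.115), ST-HSC replicate 2 (0.0862), ST-HSC replicate 3 (0.0952) or MPP replicate 3 (0.0515). It was also not called without LT-HSC replicate 1 and ST-HSC replicate 1 together (0.154) or with array weights (0.0828). Without that pair of arrays MPP minus ST-HSC was -1.74 (limma adjusted p = 0.027). The MPP minus ST-HSC difference ran from -1.84 to -1.46 (limma adjusted p from 0.000331 to 0.0853) and was not called without ST-HSC replicate 2 (limma adjusted p = 0.0848), ST-HSC replicate 3 (0.0853), MPP replicate 2 (0.0601) or MPP replicate 3 (0.077), or after centring each array on its median (0.0615). Calls over all genes also fell where Mfsd2b lost its call. MPP minus ST-HSC called 34 genes in the fit reported and 2 without ST-HSC replicate 2. It called 1 without ST-HSC replicate 3, MPP replicate 2 or MPP replicate 3, and 1 after median centring. ST-HSC minus LT-HSC called 164 in the fit reported. It called 94 without ST-HSC replicate 2, 53 without ST-HSC replicate 3, 84 without MPP replicate 3 and 61 with array weights. Calls fell as well in the fits without LT-HSC replicate 1, which leave a single LT-HSC array. Between arrays of the same replicate number, MPP minus ST-HSC was -1.31, -2.23 and -1.54 for replicates 1, 2 and 3. ST-HSC minus LT-HSC was 1.10 and 1.49 for replicates 1 and 3.

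Of the genes of megakaryocytes and platelets, 2 were called in the same comparisons and directions as Mfsd2b. Of 12 such genes listed, 9 were matched by symbol, and their mean log2 signal was 6.34 and 6.57 in LT-HSC, 7.58, 6.71 and 6.91 in ST-HSC, and 5.93, 5.73 and 6.08 in MPP. Within LT-HSC and within ST-HSC the array with the highest mean of these genes was the one with the lowest Mfsd2b signal. Within MPP, replicate 2 was lowest for both, at 5.73 for these genes and 5.38 for Mfsd2b. Of these 9, 8 had a higher mean in ST-HSC than in LT-HSC, beside 52.0% of all genes tested. In MPP 0 had a higher mean than in ST-HSC, beside 51.7% of all genes. For Ppbp and Clec1b the higher ST-HSC mean rested on ST-HSC replicate 1. Ppbp read 6.12 and 7.48 in LT-HSC and 9.14, 6.46 and 6.925 in ST-HSC. Clec1b read 4.31 and 4.73 in LT-HSC and 6.32, 4.04 and 4.04 in ST-HSC. Itga2b, the integrin subunit CD41 of platelets and early progenitors, read 6.48 and 6.30 in LT-HSC, 7.55, 7.52 and 7.64 in ST-HSC, and 6.32, 6.33 and 6.55 in MPP. It was called higher in ST-HSC than in LT-HSC, with a difference of 1.18 (limma adjusted p = 0.00814), and lower in MPP, with an MPP minus ST-HSC difference of -1.17 (limma adjusted p = 0.0141). Gp5, a subunit of the platelet von Willebrand factor receptor, was also called in both, at 1.44 (limma adjusted p = 0.0194) and -1.81 (limma adjusted p = 0.0141). The platelet chemokine Pf4 was called in MPP minus ST-HSC at -2.004 (limma adjusted p = 0.034) but not in ST-HSC minus LT-HSC, where it differed by 1.31 (limma adjusted p = 0.158). Vwf, von Willebrand factor, had another order, with 7.20 and 7.22 in LT-HSC, 6.91, 6.27 and 6.20 in ST-HSC, and 5.33, 5.19 and 5.67 in MPP. It was called in MPP minus LT-HSC, at -1.82 (limma adjusted p = 0.0147). The part of platelets or of megakaryocyte-primed cells in the Mfsd2b signal was not tested.

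**Figure D2:**
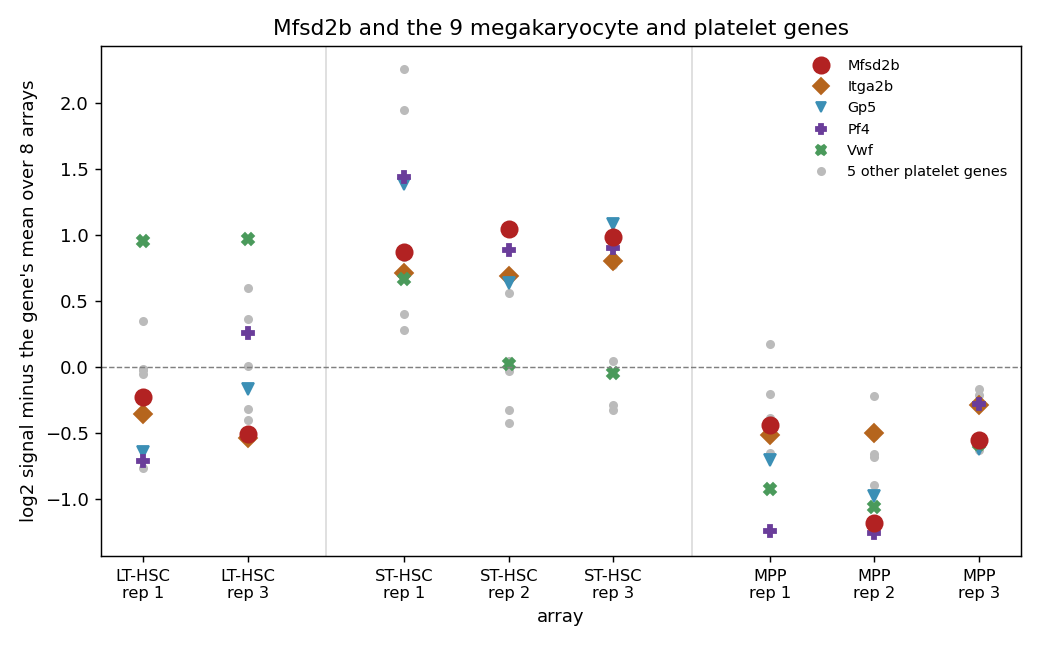
Signal of Mfsd2b and of 9 megakaryocyte and platelet genes on each array, as the log2 signal minus the mean of that gene over the 8 arrays (vertical axis), with arrays grouped by population (horizontal axis). Mfsd2b, Itga2b, Gp5 and Pf4 lie above their means in all 3 ST-HSC arrays and below them in all 3 MPP arrays, while Vwf is highest in the 2 LT-HSC arrays.

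Erythroid genes were highest in the replicate 1 arrays. The 5 matched of 10 listed erythroid genes (Epb42, Slc4a1, Ermap, Klf1 and Rhag) averaged 6.72 and 6.24 in LT-HSC, 7.51, 5.90 and 6.30 in ST-HSC, and 6.92, 5.72 and 5.97 in MPP. Of the 5, 3 had a higher mean in ST-HSC than in LT-HSC and all 5 had a lower mean in MPP than in ST-HSC, but none was called in any comparison by limma. Mfsd2b was likewise highest in replicate 1 within LT-HSC and within MPP, and was lowest in replicate 1 within ST-HSC. The part of erythroid cells in the Mfsd2b signal was not tested.

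The genes whose signal was most like that of Mfsd2b over the 8 arrays included Itga2b. The 5 with the highest Pearson correlation were Lnpk (r = 0.975), an endoplasmic reticulum junction protein, the secreted growth factor Ptn (0.968), the matrix proteoglycan Ogn (0.951), Itga2b (0.950) and the tubulin Tuba8 (0.947). Ptn averaged 5.39 in LT-HSC, 6.71 in ST-HSC and 5.32 in MPP. Lnpk spanned less, with 5.56 in LT-HSC, 5.92 in ST-HSC and 5.57 in MPP. The arrays share the same populations and handling, so these values describe likeness of pattern only.

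Spns2, the S1P exporter known from mouse endothelium, overlapped between all populations. Its probe set, 17265672, read 8.20 and 8.62 in LT-HSC, 7.71, 8.56 and 8.82 in ST-HSC, and 8.91, 8.58 and 8.87 in MPP. ST-HSC replicate 1 was the lowest array and LT-HSC replicate 1 the next. MPP minus LT-HSC was 0.38 (95% interval -0.27 to 1.03, limma adjusted p = 0.624), ST-HSC minus LT-HSC -0.04 (-0.69 to 0.60, limma adjusted p = 0.972) and MPP minus ST-HSC 0.42 (-0.16 to 1.00, limma adjusted p = 0.936). The 14 listed genes of endothelium and stroma averaged 5.88 in ST-HSC replicate 1 and 4.73 in both other ST-HSC arrays, and between 4.74 and 5.19 in the LT-HSC and MPP arrays. In ST-HSC replicates 1, 2 and 3 the collagen gene Col1a2 read 10.85, 4.74 and 5.18. The endothelial receptor gene Robo4 read 5.72, 6.68 and 6.68 and so was lowest in replicate 1, as Spns2 was. The other listed endothelial genes did not share this order. The endothelial cadherin gene Cdh5 lay between 4.03 and 4.82 on all arrays. In these ST-HSC arrays it read 4.82, 4.27 and 4.34, highest in replicate 1. Kdr, Stab2, Cldn5 and Plvap were also highest in replicate 1, while Flt4 and Nos3 were highest in replicate 3. The part of these cells in the Spns2 signal was not tested.

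The sphingosine kinases were not called in any comparison. Sphk1, the kinase induced by growth factors, read 5.49 and 5.34 in LT-HSC, 5.57, 5.45 and 5.48 in ST-HSC, and 5.58, 5.14 and 5.53 in MPP. Its 3 differences lay between -0.08 and 0.08, their 95% intervals lay between -0.45 and 0.49, and the limma adjusted p were at least 0.898. Sphk2, the kinase also found in the nucleus and mitochondria, read 6.45 and 6.48 in LT-HSC, 5.97, 6.38 and 6.25 in ST-HSC, and 6.51, 6.16 and 6.63 in MPP. Every ST-HSC array lay below both LT-HSC arrays, with a difference of -0.27 (95% interval -0.70 to 0.17, limma adjusted p = 0.654). MPP overlapped both, at -0.04 against LT-HSC (limma adjusted p = 0.946) and 0.23 against ST-HSC (limma adjusted p = 0.994).

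Sgpl1, the lyase that ends S1P by cleaving it, had its highest signals in MPP without passing the threshold. Its probe set, 17241162, read 6.12 and 6.70 in LT-HSC, 6.71, 6.48 and 6.45 in ST-HSC, and 7.08, 6.88 and 6.995 in MPP. The MPP arrays all lay above every other array, while LT-HSC and ST-HSC overlapped. Sgpl1 in MPP exceeded LT-HSC by a mean of 0.57 (SE 0.20, 95% interval 0.12 to 1.02, limma adjusted p = 0.377) and ST-HSC by 0.44 (SE 0.18, 95% interval 0.04 to 0.84, limma adjusted p = 0.639). Without LT-HSC replicate 3, MPP minus LT-HSC was 0.86, where LT-HSC is a single array that stood apart and is assumed to vary like the other groups. MPP minus ST-HSC was called with array weights, at 0.51 (limma adjusted p = 0.0437). That setting called 525 genes in this comparison, beside 34 in the fit reported. Over all alternatives the limma adjusted p of MPP minus ST-HSC ran from 0.0437 to 1.00. Without LT-HSC replicate 1 and ST-HSC replicate 1, MPP minus LT-HSC was 0.28 and MPP minus ST-HSC 0.52, neither called.

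S1pr1, the receptor that draws lymphocytes and, in mouse, hematopoietic progenitors out of tissue, varied most over the arrays among the members. Its probe set, 17409621, read 6.93 and 7.91 in LT-HSC, 5.92, 7.49 and 7.29 in ST-HSC, and 7.20, 8.73 and 7.85 in MPP. The populations overlapped, and the replicate 1 array was the lowest in each. The difference was 1.03 for MPP minus ST-HSC (SE 0.46, 95% interval 0.02 to 2.04, limma adjusted p = 0.705). MPP minus LT-HSC stood at 0.51 (SE 0.51, limma adjusted p = 0.698), and ST-HSC minus LT-HSC at -0.52 (SE 0.51, limma adjusted p = 0.74).

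Granulocyte and monocyte genes, like those of some other cell types, were highest in the replicate 1 arrays, where S1pr1 was lowest. The 11 listed averaged 7.0 and 4.98 in LT-HSC, 7.30, 5.58 and 5.22 in ST-HSC, and 6.72, 5.71 and 5.80 in MPP, so the replicate 1 array was the highest in each population, and none of the 11 was called in any comparison by limma. The means of the listed erythroid, B cell, and endothelium and stroma genes were also highest in replicate 1 of each population. Those of the megakaryocyte and platelet and of the T and natural killer cell genes were so only within ST-HSC. The part of any of these cells in the S1pr1 values was not tested. Without LT-HSC replicate 1 and ST-HSC replicate 1, S1pr1 differed by 0.54 in MPP minus ST-HSC (limma adjusted p = 0.792) and by 0.018 in MPP minus LT-HSC.

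Within replicate numbers, S1pr1 was higher in MPP than in ST-HSC in all 3 pairs, by 1.28, 1.24 and 0.56. With the replicate block the MPP minus ST-HSC difference of 1.03 was called over all 8 arrays (limma adjusted p = 0.0124). With only these 2 populations it was called as well (limma adjusted p = 0.0215). In both fits this made 2 members called in place of 1. Over all genes the block called 267 with all 8 arrays and 289 with only these 2 populations, beside 34 in the fit reported. Over all alternatives the limma adjusted p of S1pr1 in MPP minus ST-HSC ran from 0.0124 to 1.00. The pairing of these arrays rests on their values, as described in the processing section, and not on a statement in the labels. ST-HSC minus LT-HSC, for which 2 replicate numbers are shared, was -1.01 and -0.62 within them. With the replicate block this difference was -0.87 and was called (limma adjusted p = 0.0471), but the pairing could not be checked for LT-HSC. Over all alternatives its adjusted p ran from 0.0471 to 0.983. The block called 473 genes in ST-HSC minus LT-HSC, beside 164 in the fit reported.

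The genes most like S1pr1 over the 8 arrays were the repair nuclease Ercc5 (r = 0.989), the vesicle protein Vamp2 (0.982), the adaptor Abi3 (0.981), the ubiquitin-like Ubl3 (0.975) and the NF-kappaB regulator Nfkbiz (0.975). Abi3 averaged 7.59 in LT-HSC, 7.11 in ST-HSC and 7.94 in MPP. All 5 were lowest in ST-HSC replicate 1, as S1pr1 was. They were chosen by their correlation with S1pr1 over these same arrays, so this shared minimum is a description only.

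None of the other receptors was called in any comparison. S1pr2, a receptor that restrains migration, read 6.77 and 7.13 in LT-HSC, 7.31, 7.16 and 6.88 in ST-HSC, and 6.90, 7.57 and 6.93 in MPP. S1pr4, a receptor found mainly on blood cells, read 6.53 and 7.03 in LT-HSC, 6.36, 7.09 and 6.92 in ST-HSC, and 6.85, 7.03 and 6.996 in MPP. For both genes the arrays of all populations overlapped. The largest difference of S1pr2 was 0.18 (MPP minus LT-HSC, 95% interval -0.34 to 0.71, limma adjusted p = 0.77), as was that of S1pr4 (MPP minus LT-HSC, -0.35 to 0.70, limma adjusted p = 0.776).

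S1pr5, which in mouse guides natural killer cells and monocytes out of the marrow, read 5.79 and 5.53 in LT-HSC, 5.46, 5.43 and 5.42 in ST-HSC, and 5.32, 5.61 and 5.65 in MPP. Its ST-HSC arrays lay below both LT-HSC arrays, by a mean of -0.22 (95% interval -0.61 to 0.17, limma adjusted p = 0.677). Of 12 listed T and natural killer cell genes, 11 were matched, and they averaged between 4.57 and 4.88 on all arrays. Among them Nkg7 was brighter than the others, at 8.10 and 8.83 in LT-HSC. It lay between 9.20 and 9.54 in ST-HSC and between 9.40 and 9.59 in MPP, and was not called in any comparison. S1pr3, a receptor of endothelium and smooth muscle, was dim, with 3.84 and 4.16 in LT-HSC, 3.90, 3.66 and 3.89 in ST-HSC, and 4.28, 3.83 and 4.18 in MPP. Its mean over all arrays exceeded the filter value of 3.88 by 0.08, so that little can be read from its differences, none of which was called.

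**Figure D3:**
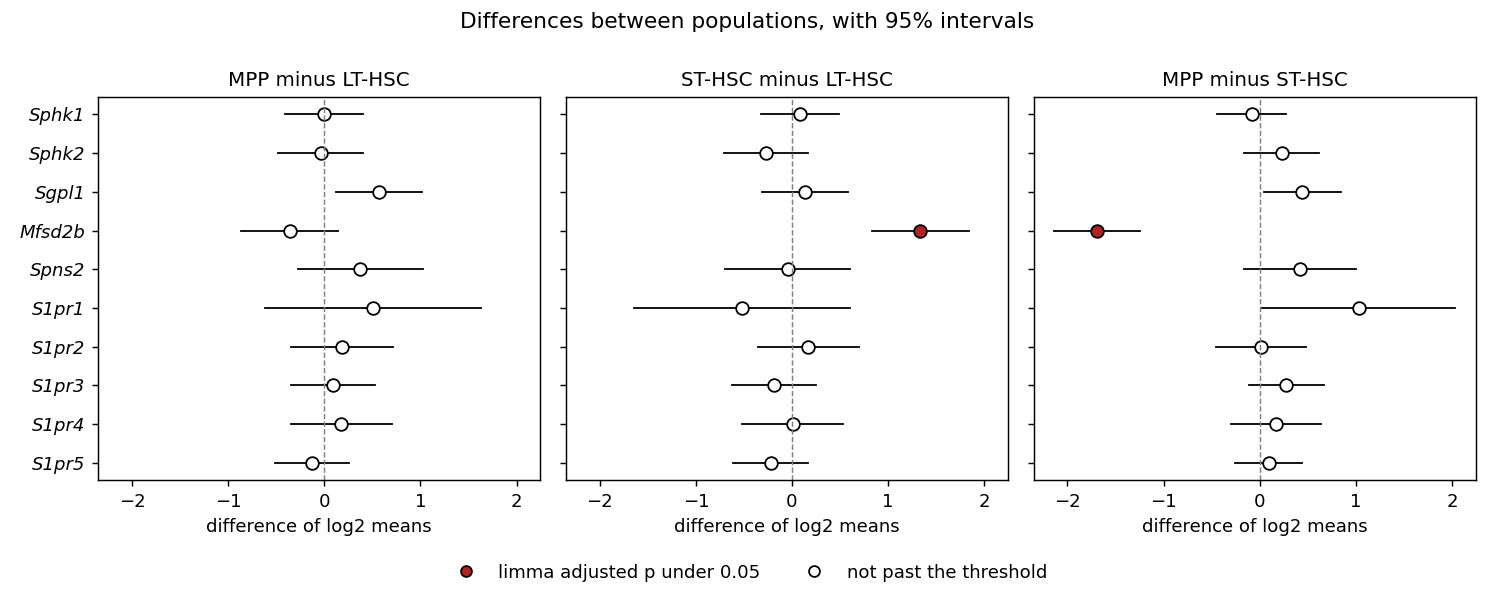
Difference of log2 means for each member (rows) in each comparison (panels), with limma's 95% interval and filled points where the limma adjusted p is under 0.05. Mfsd2b is filled in ST-HSC minus LT-HSC, at 1.33, and in MPP minus ST-HSC, at -1.69, and no member is filled in MPP minus LT-HSC.

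Counted over the 10 members, MPP minus LT-HSC had 7 higher, 3 lower and 0 called by limma, with 1 (Sgpl1) at an unadjusted p under 0.05. Over all genes 0.125% were called in this comparison and 10.6% had an unadjusted p under 0.05. ST-HSC minus LT-HSC had 5 higher, 5 lower and 1 called, and MPP minus ST-HSC had 8 higher, 2 lower and 1 called. At an unadjusted p under 0.05 there were 1 (Mfsd2b) and 3 (Mfsd2b, Sgpl1 and S1pr1), beside 11.1% and 6.89% of all genes. The median difference of the members was 0.14, -0.02 and 0.20 in these 3 comparisons, beside 0.06, 0.02 and 0.01 over all genes tested. Arrays of the 2 populations did not overlap for 1 member in MPP minus LT-HSC, 3 in ST-HSC minus LT-HSC and 2 in MPP minus ST-HSC, beside 24.7%, 23.3% and 14.2% of all genes. The comparisons share arrays, so their counts are not independent of each other.

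Other genes of S1P metabolism and signalling were described by 7 lists holding 64 genes, of which 58 were matched and 57 tested. None of the 57 was called by limma in any comparison. At an unadjusted p under 0.05 there were 9 in MPP minus LT-HSC, 5 in ST-HSC minus LT-HSC and 4 in MPP minus ST-HSC. Over all genes tested, 10.6%, 11.1% and 6.89% had such a p. Positive differences made up 63.2%, 54.4% and 64.9% of the 57 genes, beside 57.2%, 52.0% and 51.7% of all genes. The median differences of the 57 were 0.07, 0.05 and 0.05, beside 0.06, 0.02 and 0.01 over all genes. The smallest adjusted p belonged to Smpd4, a neutral sphingomyelinase, which was 7.42 ± 0.33 in ST-HSC and 6.50 ± 0.22 in LT-HSC (SD, n = 3 and 2, limma adjusted p = 0.089). Spns3, a relative of Spns2, was 7.64 ± 0.17 in MPP and 6.66 ± 0.21 in LT-HSC (SD, n = 3 and 2, limma adjusted p = 0.0972).

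Enzymes that dephosphorylate S1P or feed its synthesis were not called. Over all genes tested, 57.2% were higher in MPP than in LT-HSC. Among 5 S1P phosphatase genes, MPP minus LT-HSC was positive for 2, and the brightest, Sgpp1, differed by 0.16 (limma adjusted p = 0.769). Of 5 ceramidase genes, which release sphingosine, 4 were higher in MPP than in LT-HSC, with the neutral ceramidase Asah2 at 0.43 (limma adjusted p = 0.573). In ceramide synthesis, 9 of 14 genes were higher in MPP than in LT-HSC, with Ormdl2, a regulator of serine palmitoyltransferase, at 0.07 (limma adjusted p = 0.907). Of 9 genes of sphingomyelin and other ceramide branches 6 were higher, with the ceramide carrier Cert1 at 0.04 (limma adjusted p = 0.946). Of 5 carriers and related transporters 3 were higher, with Abcc1, an ABC exporter, at 0.36 (limma adjusted p = 0.523). In MPP minus ST-HSC all 5 ceramidase genes and all 5 carriers had positive differences, with medians of 0.11 and 0.10. Over all genes tested, 51.7% had a positive difference there, with a median of 0.01.

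Of 15 tested genes of receptor signalling and its regulation, 11 were higher in MPP than in LT-HSC, with a median of 0.25. By limma 0 of them were called and 5 had an unadjusted p under 0.05, beside 10.6% of all genes. The same number was higher in ST-HSC minus LT-HSC (11, median 0.20) and in MPP minus ST-HSC (11, median 0.06). Over all genes tested, 57.2%, 52.0% and 51.7% were higher in these comparisons. The brightest, the GTPase Rhoa, was 11.59 ± 0.05 in MPP and 11.19 ± 0.07 in LT-HSC (SD, n = 3 and 2), a difference of 0.40 (limma adjusted p = 0.432). Of 4 tested receptors for lysophosphatidic acid, a related lipid, 1 was higher in MPP than in LT-HSC, and the brightest, Lpar4, differed by -0.41 (limma adjusted p = 0.654).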

How the data were processed

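The authors deposited 1 table of log2 signals, covering 33649 probe sets and 8 arrays. Per the labels, RNA was Trizol-extracted, amplified with the Ovation Pico WTA V2 kit and biotin-labelled, and RMA (background correction, normalization across arrays and probe summary) produced the signals, per the submitters' processing notes. Its version is not given in the sources used here. No source names the scale, and the range of the values is that of log2. Amplification can add spread, and the number of arrays limits the precision.

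Of the probe sets, 23521 had 1 gene symbol in the platform annotation, 1814 had several and 8314 were unnamed here. Genes with several probe sets took the brightest. The 17576 genes with a mean at or above the 25th percentile of probe sets (3.88) were fitted with limma 3.58.1 (R 4.3.3) in 1 model of all 8 arrays with 3 population means, 5 residual and 5.93 prior degrees of freedom and Benjamini-Hochberg adjustment over all genes, called at an adjusted p under 0.05. The fit was tested on simulated data. Alternatives were other filters, scalings, weights, samples in the fit, the replicate number as a block and leaving out arrays.

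Members and lists were chosen with earlier results of these data known. Named genes were the members, each other list's called genes and brightest gene, and the 5 genes most correlated with each of the 2 members of largest range of population means. Predicted genes, small RNAs and receptor segments were left out there. Smpd4, Spns3 and the single marker genes were named after their values were seen. List genes were matched by symbol.

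Same-numbered ST-HSC and MPP arrays deviated together from their group means (r over all genes 0.15, 0.23 and 0.21 for replicates 1, 2 and 3). All were above 0.1, so these numbers were taken as pairs in the replicate block, which was an alternative. The fit reported did not use the pairs. Deviations cancel within a population and few matchings exist, so the check is weak. LT-HSC has 2 arrays and cannot be checked this way.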

Additional observations from a re-analysis of the deposited data

How the results depend on the processing

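Only 8 arrays limit every statement, LT-HSC has 2, and no signal over background was analysed here. Mfsd2b kept its direction in ST-HSC minus LT-HSC and in MPP minus ST-HSC under every alternative run, with the lost calls given in the report. Of 30 member differences, 17 kept their sign under every alternative. S1pr3 did not pass a filter at the 50th percentile and has no value there. The causes of the changes below were not tested.

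Members called in ST-HSC minus LT-HSC numbered 0 with array weights and 2 with the replicate block, where S1pr1 joined Mfsd2b at -0.87 (limma adjusted p = 0.0471). In MPP minus ST-HSC they numbered 0 after median centring, and 2 with array weights, with the replicate block over all 8 arrays and with it over the 2 groups. The F test called 2 with the replicate block. With arrays left out, each of the 4 counts ran from 0 to 1. Genes called overall went from 22 to 157 (MPP minus LT-HSC), from 164 to 473 (ST-HSC minus LT-HSC) and from 34 to 267 (MPP minus ST-HSC) with the block.

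None of the differences that turned sign was called in the fit reported. Median centring gave Spns2 0.066 in ST-HSC minus LT-HSC and Sphk2 0.084 in MPP minus LT-HSC; it moved the median of all genes from 0.06 to 0.18 in MPP minus LT-HSC and from 0.02 to 0.13 in ST-HSC minus LT-HSC, and the share of genes with a positive difference from 57.2% to 72.2% and from 52.0% to 68.3%. Array weights gave 0.17 for Spns2 in ST-HSC minus LT-HSC, 0.0083 for Sphk1 and -0.053 for S1pr2 in MPP minus ST-HSC, and 0.069 for Sphk2 in MPP minus LT-HSC. Quantile normalization gave -0.011 for S1pr2 in MPP minus ST-HSC and -0.094 for S1pr4 in ST-HSC minus LT-HSC, where the replicate block gave -0.087.

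With arrays left out, MPP minus LT-HSC ran from -0.079 to 0.14 for Sphk1, -0.14 to 0.10 for Sphk2, -0.034 to 0.36 for S1pr2, -0.069 to 0.25 for S1pr3, -0.073 to 0.43 for S1pr4 and -0.26 to 0.0038 for S1pr5. ST-HSC minus LT-HSC ran from -0.27 to 0.28 for Spns2, -0.24 to 0.42 for Sgpl1, -0.10 to 0.35 for S1pr2 and -0.24 to 0.26 for S1pr4. MPP minus ST-HSC ran from -0.16 to 0.052 for Sphk1, -0.20 to 0.13 for S1pr2 and -0.044 to 0.32 for S1pr4.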
